A study of Mus musculus with 20 samples.

Results

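The genes described here build the nuclear pore or carry cargo through it. They were taken by symbol from a list of 37 nucleoporins and nuclear transport factors, out of 37561 genes in the files. The rule uses symbols and no measured value, but the list was drawn up with earlier results of these data known. The list holds 15 genes of the pore scaffold, 11 of the pore periphery (cytoplasmic filaments, central channel and nuclear basket) and 11 soluble transport factors. Of the 37, 36 passed the filter on low values; Kpna2 did not.

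RNA was sequenced from spherical neural masses (SNM), aggregates of neural precursor cells, made from mouse ESD3 (D3) embryonic stem cells of strain 129s2/SvPas and taken toward dopaminergic neurons. The control line carried a retroviral shRNA against luciferase and the HPRT knockdown line one against HPRT, the purine salvage enzyme whose loss causes Lesch-Nyhan disease, so both lines had been infected. Each line gave 1 library on each of 10 days of differentiation, daily from day 0 to day 4 and at steps of 2 days from there to day 14, which makes 20 libraries. The stem cells had been kept on mouse embryo fibroblast feeders, transduced cells were selected with puromycin, and RNAs of a line and day, from replicate cultures per the labels, were pooled before sequencing. The sources used here describe 1 control and 1 knockdown line. The days follow each other in 1 line, so p-values over days measure the spread between days and not between independently made lines. Day 6 was left out of all tests, because the study set it aside as discrepant; its values are described separately. Every value is a log2 ratio of normalized read counts. The files hold no levels and no read total for a library, so the amounts of 2 genes in one library cannot be compared and no counting error can be set beside a ratio. The relative size factors that the tables imply, knockdown over control library of a day, lay between 0.571 and 1.47.

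The nuclear pore complex is a ring-shaped channel through the nuclear envelope. A scaffold of Y-shaped subcomplexes and an inner ring holds central nucleoporins rich in phenylalanine-glycine repeats, which form the permeability barrier, and filaments reach into the cytoplasm and a basket into the nucleus. Importins and exportins bind cargo, and the small GTPase Ran, in its GTP form inside the nucleus and its GDP form outside, sets the direction of travel. Cells that divide build many new pores, since the number of pores is restored after each division.

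Promoter sequences are shown for the gene with the lowest mean ratio in each of the 3 groups among those with a sequence (Nup37, Aaas and Xpo1), for the lowest with an NRF1 word (Nup107), and for the member nearest to no difference between the lines among those with a sequence (Kpna4; Kpna6 was nearer and had none). Each run holds the 250 bases before the annotated start, 5′ to 3′ on the gene's strand, from RefSeq on GRCm38.p6. Capitals mark a match to a word that was searched on both strands: CCAAT (NF-Y; its reverse reads ATTGG), CCGGAAGT (ETS factors) or the 10-letter NRF1 word, which reads the same on both strands and is the run in capitals in the Nup107 promoter.
Nup37, chr10:88146742-88146991, plus strand: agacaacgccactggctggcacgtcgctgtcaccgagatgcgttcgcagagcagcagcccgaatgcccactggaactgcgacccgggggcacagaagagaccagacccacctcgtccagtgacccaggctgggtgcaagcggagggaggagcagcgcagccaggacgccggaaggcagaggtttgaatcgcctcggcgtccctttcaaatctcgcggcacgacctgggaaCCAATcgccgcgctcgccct
Aaas, chr15:102350760-102351009, minus strand: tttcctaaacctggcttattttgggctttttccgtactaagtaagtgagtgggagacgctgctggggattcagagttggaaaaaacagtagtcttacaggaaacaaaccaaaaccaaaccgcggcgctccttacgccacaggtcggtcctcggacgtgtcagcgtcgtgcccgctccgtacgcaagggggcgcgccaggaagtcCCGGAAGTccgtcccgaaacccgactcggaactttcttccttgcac
Xpo1, chr11:23255791-23256040, plus strand: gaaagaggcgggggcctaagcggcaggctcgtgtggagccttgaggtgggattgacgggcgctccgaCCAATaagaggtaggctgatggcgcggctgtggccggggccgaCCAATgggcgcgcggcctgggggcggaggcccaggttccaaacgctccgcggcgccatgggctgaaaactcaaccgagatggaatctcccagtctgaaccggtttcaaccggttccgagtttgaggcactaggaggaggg
Nup107, chr10:117792706-117792955, minus strand: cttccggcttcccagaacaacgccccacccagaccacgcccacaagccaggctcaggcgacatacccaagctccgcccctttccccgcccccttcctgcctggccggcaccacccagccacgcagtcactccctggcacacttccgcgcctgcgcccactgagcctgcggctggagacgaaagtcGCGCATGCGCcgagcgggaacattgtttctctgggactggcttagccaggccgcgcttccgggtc
Kpna4, chr3:69127093-69127342, minus strand: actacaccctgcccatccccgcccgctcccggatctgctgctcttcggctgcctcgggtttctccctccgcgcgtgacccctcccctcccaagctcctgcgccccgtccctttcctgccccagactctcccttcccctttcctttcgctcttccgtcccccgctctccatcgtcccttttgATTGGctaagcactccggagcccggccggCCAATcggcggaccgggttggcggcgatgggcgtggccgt

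Of the 37 genes, 29 had a promoter window in the RefSeq table, in 32 windows of 300 bases (250 before and 50 after the start). These windows were rich in G and C: the median was 64.8% against 52.7% over all 32851 windows, and the median number of CG pairs was 28 against 7. The NRF1 word stood in 5 of 32 windows (15.6%), those of Nup107, Nup50, Nup62, Ran and Xpo5, and in 0.971% of all windows. The ETS word CCGGAAGT was found in 5 windows (Aaas, Nup155, Nup54, Rae1 and Sec13; 15.6% against 3.89% of all windows), and CCAAT in 15 (46.9% against 37.4%). The E-box CACGTG was found in 5 windows (15.6% against 7.15%), the YY1 word AAGATGGC in 4 (12.5% against 2.75%) and the cyclic AMP response element TGACGTCA in 2 (6.25% against 1.79%). The E2F words TTTCGCGC and TTTGGCGC were in 0 of the 32 windows and in 0.813% of all windows, counted together. Words made of G and C are more frequent in sequence rich in G and C, and the shares were not adjusted for base composition. The promoter of Kpna4, whose RNA differed little between the lines, held the CCAAT word on both strands, as the promoter of Xpo1 held it in 2 places. A match is a description of the letters and says nothing on binding.

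Most genes of the pore and its transport machinery had lower normalized RNA in the HPRT knockdown line over the 9 days tested. Among the 36 genes tested, 30 were lower in the HPRT knockdown line and 0 were higher (limma on the ratios of 9 days, Benjamini-Hochberg adjusted p under 0.05), where 26.2% of all 13200 genes tested were lower and 26.5% higher. The median of the 36 mean ratios was -0.576 on the log2 scale, which is 67.1% of the control, against 0.0087 for all genes tested. The mean ratios ran from -1.33 (Nup43) to 0.04 (Kpna6). For 26 of the 36 the knockdown library was below the control library on all 9 days, which held for 15.2% of all genes tested. In bulk RNA, fewer cells of a type and less RNA per cell cannot be told apart. The count of 30 became 28 without day 1, the day of the largest differences, and 27 with day 6 kept. Over all genes tested, 6964 were called in either direction, 6428 without day 1 and 6038 with day 6 kept.

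**Figure D1:**
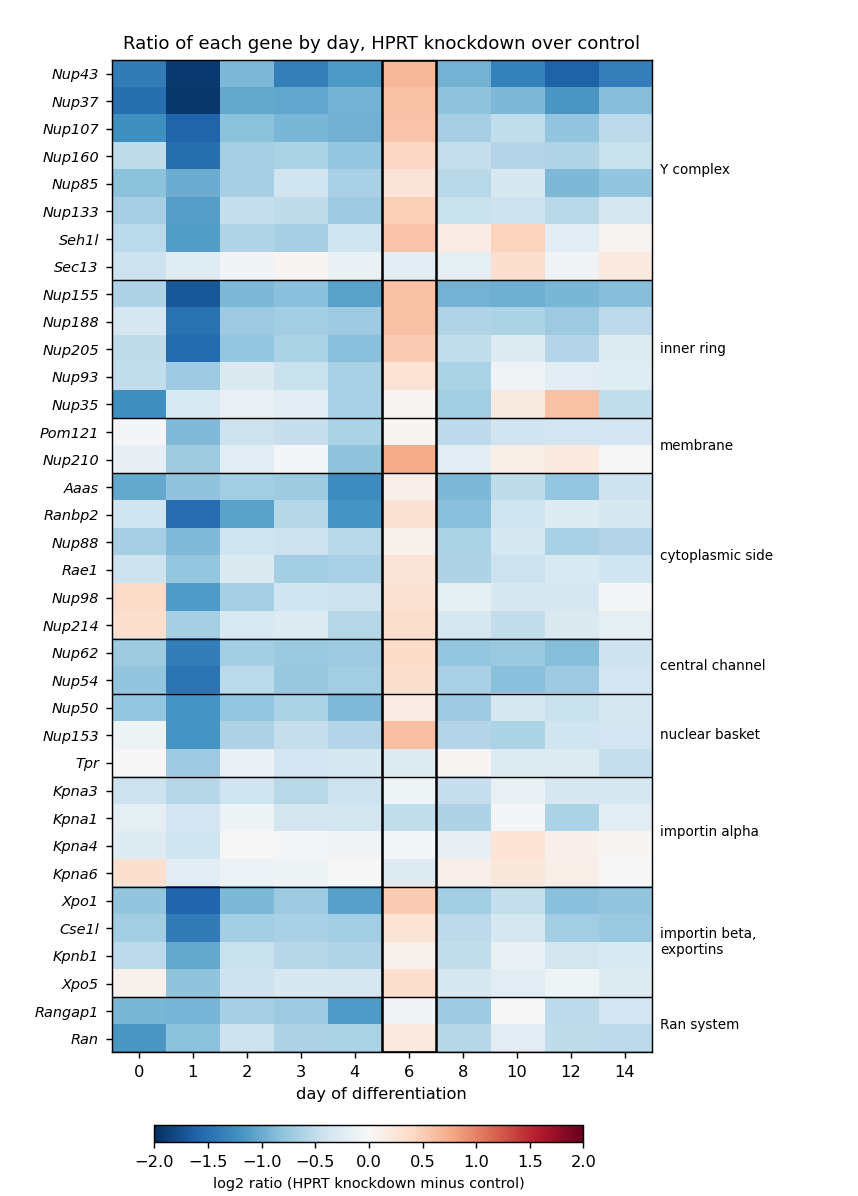
Heat map of the log2 ratio, HPRT knockdown minus control, for each of the 36 genes tested (rows, by part of the pore or transport step) on each of 10 days (columns), with day 6 boxed; blue is lower and red higher in the knockdown library. Day 1 is the darkest column (median -1.004) and day 6 is the red column, with 29 of 36 genes above 0.

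The label of the knockdown line was checked on the targeted gene. The ratio of Hprt lay between -5.00 and -2.53 on all 10 days, and its mean over 9 days was -4.00 ± 0.888 (SD), or 6.24% of the control (exact sign-flip permutation test, two-sided, p = 0.00390625, the smallest that 9 days allow). In the control line, 7 of 11 neuron markers tested rose over the days and 0 fell. Of all genes tested, 19.5% rose and 24.3% fell in that line. The filter on low values was not passed by 3 of 10 dopaminergic markers, Th, Slc6a3 and Pitx3.

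Marker genes of cell states and cell types were compared in the same way, where 26.2% of all genes tested were lower and 26.5% higher. Of 20 proliferation genes, 19 were lower in the knockdown line (median mean ratio -0.976), and their median was -1.54 on day 1 and 0.53 on day 6. All 10 pluripotency genes tested were lower (median -2.71), with a median of -7.61 on day 1 and 0.26 on day 6. Neuron markers were lower for 7 of 11 genes tested (median -1.21) and glia markers higher for 7 of 12 (median 2.02), and dopaminergic markers higher for 3 of 7 (median 0.57). Fibroblast markers were lower for 2 and higher for 1 of 10 (median -0.336) and neural progenitor markers lower for 2 and higher for 3 of 10 (median 0.04). No share of cells was measured, and the part of these values in the pore genes' ratios was not tested.

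The Y complex is the outer scaffold of the pore, on both faces of the envelope. Of the 8 genes listed under it, 6 were lower in the knockdown line, with a median mean ratio of -0.683. Nup43 (chr10:7387301-7398679 on NCBIM37, gene 69912), a propeller-shaped arm subunit of the Y, was the lowest of all 36. It passed the filter on low values but not the stricter filter at a log2 count of 8. Its ratio was -1.92 at the lowest (day 1), -1.36 at the median and -0.90 at the highest (day 2), a mean of -1.33 ± 0.32 (SD, n = 9 days; adjusted p = 2.52e-05), or 39.6% of the control. Nup37 (chr10:87609737-87641133), another propeller subunit of the Y, ran from -1.93 on day 1 over a median of -1.03 to -0.80 on day 8. Its mean was -1.13 ± 0.37 (adjusted p = 9.37e-05), or 45.7% of the control. The ratios of both genes lay at or below -0.80 on every one of the 9 days. Nup107, at the stem of the Y, had a mean ratio of -0.89 ± 0.35, with -1.60 at the lowest, -0.82 at the median and -0.50 at the highest. Its ratio was -1.23 on day 0 and -0.52 on day 14.

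Nup160, Nup85 and Nup133, the remaining large subunits listed under the Y, had mean ratios of -0.69 ± 0.32, -0.68 ± 0.22 and -0.58 ± 0.23. Their ratios were below 0 on all 9 days. Seh1l and Sec13, small propeller proteins that are shared with other complexes (Sec13 with the coat of vesicles leaving the endoplasmic reticulum, both with a complex that relays amino acid supply), were the members of the Y that did not pass the test. Seh1l had ratios from -1.12 (day 1) over -0.41 to 0.45 (day 10), below 0 on days 0 to 4 and 12 and above 0 on days 8, 10 and 14, with a mean of -0.32 ± 0.48 (adjusted p = 0.0961; 0.0317 without day 10). Sec13 ran from -0.43 to 0.33 around a median of -0.08, and its mean of -0.06 ± 0.23 was smaller than the spread between days (adjusted p = 0.547). The direct contrast between these 2 genes and the other 6 was not tested.

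The inner ring lines the pore between the outer rings. Of its 5 genes, 4 were lower, with a median of -0.652. Nup155 (chr15:8059313-8109857), a linker of the inner ring to the membrane, had its lowest ratio on day 1 (-1.70), a median of -0.91 and its highest on day 0 (-0.62). Its mean was -0.98 ± 0.30 (adjusted p = 8.23e-05), or 50.7% of the control, and from day 2 to day 14 the ratio stayed between -1.07 and -0.83 outside day 6. Nup188, a large structural subunit, ran from -1.49 on day 1 over -0.69 to -0.33 on day 0, with a mean of -0.72 ± 0.32. Its partner in fold, Nup205, had a mean of -0.65 ± 0.39, with -1.54 on day 1 and -0.25 on day 10. Nup93, which anchors both, had a mean of -0.42 ± 0.22 and ranged from -0.72 to -0.08; 47.0% of its exonic windows of 50 bases also occur elsewhere in the genome, so its reads are partly uncertain.

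Nup35, which binds the membrane and Nup155, was the inner ring gene that did not pass. Its ratio was -1.22 on day 0, lay between -0.69 and -0.14 on days 1 to 8 outside day 6, reached 0.18 on day 10 and 0.59 on day 12 and was -0.50 on day 14, a mean of -0.33 ± 0.53 (adjusted p = 0.115; 0.0289 without day 12). Of its exonic windows, 32.5% also occur elsewhere. The 2 membrane nucleoporins of the list differed from each other in outcome. Pom121, which spans the pore membrane, was lower with a mean of -0.46 ± 0.22 (adjusted p = 0.00123), from -0.89 on day 1 to -0.05 on day 0. Nup210, a glycoprotein with its bulk in the lumen of the envelope, had a mean of -0.20 ± 0.35 (adjusted p = 0.16): it was at -0.71 on day 1 and -0.80 on day 4, and above 0 on days 10, 12 and 14.

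**Figure D2:**
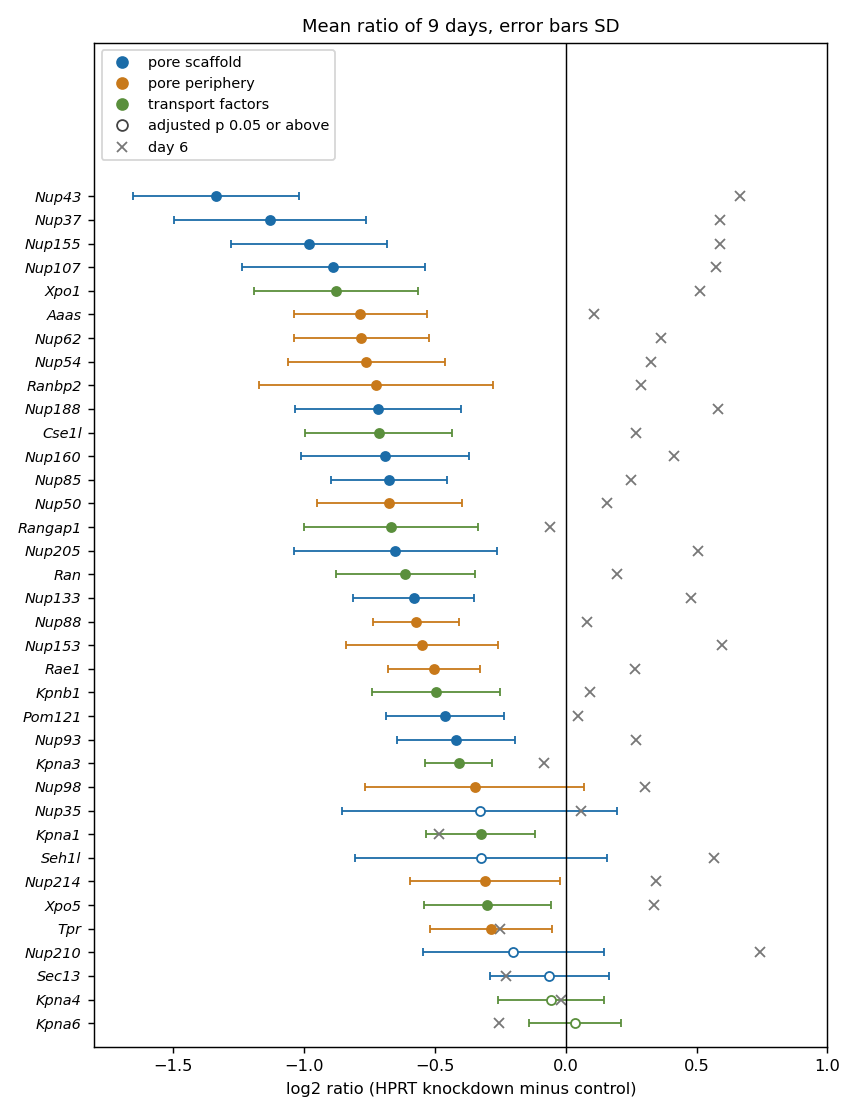
Mean log2 ratio, HPRT knockdown minus control, over 9 days (points, with SD as bars) for the 36 genes tested, ordered from lowest to highest; open points did not pass the test and crosses give day 6. Nup43 and Nup37 are lowest, the open points of Kpna4, Kpna6 and Sec13 lie next to 0, and most crosses lie to the right of 0.

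All 11 genes of the pore periphery were lower in the knockdown line, with a median mean ratio of -0.572. On the cytoplasmic side, Aaas (chr15:102168678-102181190), which codes for aladin, mutated in triple A syndrome, had the lowest mean, -0.78 ± 0.25 (adjusted p = 0.000133). Its lowest ratio fell on day 4 (-1.25) and not on day 1 (-0.80), its median was -0.77 and its highest ratio was -0.41, on day 14. Ranbp2, the giant filament protein that binds Ran and carries SUMO ligase activity, ran from -1.52 on day 1 over -0.56 to -0.25 on day 12, a mean of -0.73 ± 0.45 (adjusted p = 0.002). Its ratio was -1.18 on day 4 and between -0.40 and -0.25 from day 10 on.

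Nup88 and Rae1, filament proteins with parts in export, varied least on this side, with means of -0.57 ± 0.17 and -0.50 ± 0.18. Nup214 and Nup98, FG nucleoporins of the same side, were nearer to 0, at -0.31 ± 0.29 (adjusted p = 0.0229) and -0.35 ± 0.42 (adjusted p = 0.049). The ratio of Nup98 was 0.38 on day 0 and -1.14 on day 1, and its call was lost without any 1 of days 1, 2, 3, 4, 8, 10 or 12 (adjusted p from 0.0667 to 0.105). The call of Nup214 was lost without day 1 (adjusted p = 0.0513) or day 4 (0.0549).

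The central channel genes of the list were lower by like amounts. Nup62 (chr7:52071458-52086179), whose FG repeats fill the channel, had a mean of -0.78 ± 0.26, with -1.39 at the lowest (day 1), -0.74 at the median and -0.41 at the highest (day 14). Nup54, which assembles with it, had a mean of -0.76 ± 0.30, with -1.47, -0.73 and -0.39 on the same measures; 31.5% of its exonic windows occur elsewhere. Both stayed between -0.84 and -0.54 on days 2, 3, 4, 8, 10 and 12. In the nuclear basket, Nup50, a cofactor of cargo release from importin alpha, had a mean of -0.67 ± 0.28 and a range of -1.17 to -0.32. Nup153, which tethers the basket, had a mean of -0.55 ± 0.29: its ratio was -0.10 on day 0, -1.18 on day 1 and between -0.63 and -0.38 after that outside day 6. Tpr, the coiled-coil filament of the basket, had the smallest mean of the periphery, -0.29 ± 0.23 (adjusted p = 0.0171).

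Of the transport factors, 8 of 10 tested were lower, with a median of -0.452. The exportins and importin beta were lower in all 4 cases (median -0.605). Xpo1 (chr11:23156041-23198249), the main exportin for proteins with leucine-rich signals, ran from -1.59 on day 1 over -0.80 to -0.48 on day 10, a mean of -0.88 ± 0.31 (adjusted p = 0.000162), or 54.4% of the control. Cse1l, the exportin that returns importin alpha to the cytoplasm, had a mean of -0.71 ± 0.28, with a range of -1.39 to -0.35. Kpnb1, importin beta, had a mean of -0.50 ± 0.24, and Xpo5, which exports microRNA precursors, -0.30 ± 0.24. Both genes of the Ran system were lower. Rangap1, which stimulates GTP hydrolysis by Ran, ran from -1.13 on day 4 over -0.73 to -0.01 on day 10 (mean -0.67 ± 0.33). Ran itself ran from -1.17 on day 0 over -0.57 to -0.22 on day 10 (mean -0.61 ± 0.26); 45.2% of its exonic windows occur elsewhere.

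The importin alpha genes, whose proteins read the classical import signal and hand the cargo to importin beta, were the subgroup nearest to 0. Of the 4 tested, 2 were lower. Kpna3 had ratios between -0.57 and -0.14 with little spread (mean -0.41 ± 0.13, adjusted p = 0.000509), and Kpna1 between -0.64 and -0.03 (mean -0.33 ± 0.21, adjusted p = 0.00625). Kpna4 ran from -0.40 over -0.02 to 0.28 (mean -0.06 ± 0.20, adjusted p = 0.56) and Kpna6 from -0.23 over 0.00 to 0.32 (mean 0.04 ± 0.18, adjusted p = 0.685). For Kpna4 and Kpna6 the mean was smaller than the spread between days, and the libraries of both lines overlapped in order across the days. On day 6 all 4 importin alpha genes tested were below 0, between -0.48 (Kpna1) and -0.02 (Kpna4), where Xpo1 was at 0.51 and Cse1l at 0.27.

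**Figure D3:**
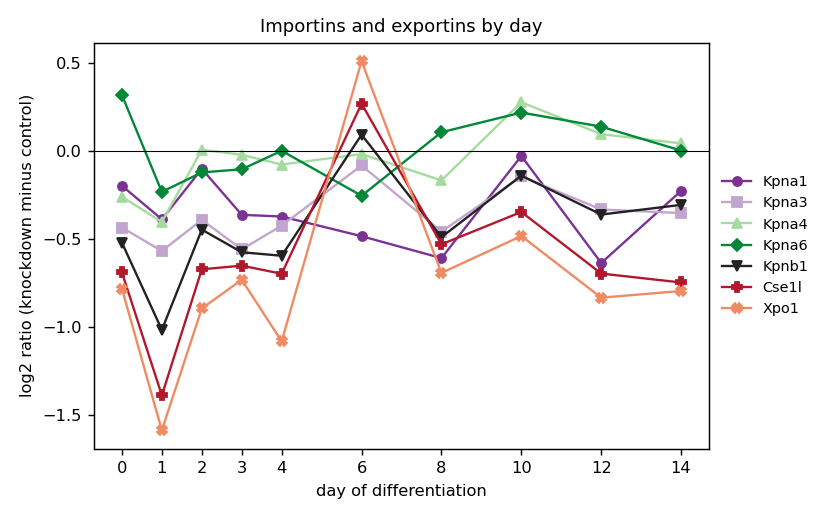
Log2 ratio, HPRT knockdown minus control (vertical axis), by day of differentiation (horizontal axis) for 4 importin alpha genes (Kpna1, Kpna3, Kpna4, Kpna6), importin beta (Kpnb1) and the exportins Cse1l and Xpo1, 1 point per day. Cse1l and Xpo1 dip on day 1 (-1.39 and -1.59) and rise above 0 on day 6, while Kpna4 and Kpna6 stay between -0.40 and 0.32.

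Kpna2 (chr11:106849943-106860855, minus strand), the importin alpha that embryonic stem cells are known to express strongly, was under the filter and was not tested. Its ratio jumped between days, from -2.54 on day 4 to 0.91 on day 1, and was below 0 on 5 of 9 days. Of its 2202 exonic windows of 50 bases, the read length, 1395 (63.4%) also occur elsewhere in the genome, the largest share of the 37 genes. Outside days 3 to 4, with a constant shift per table removed, tables of different day pairs differed by up to 0.273 for it. One such coding window, shown because it has exactly 1 other copy, lies at chr11:106852540-106852589 (NCBIM37, minus strand) and again at chr4:10781712-10781761 (plus strand). At least 35 coding windows of the gene have 1 copy elsewhere. All letters are in lower case because both copies are identical.
Kpna2 window: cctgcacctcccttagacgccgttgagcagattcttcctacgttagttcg
The part of these copies in the low values of Kpna2 was not tested. Outside the 5 genes named with their shares (Kpna2, Nup93, Ran, Nup35 and Nup54), at most 7.95% of a member's windows occur elsewhere.

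Day 1 held the lowest of the 9 ratios for 29 of the 36 genes, against 21.0% of all genes tested and 40.5% of the genes called lower. On that day all 36 ratios were below 0, from -1.93 (Nup37) to -0.23 (Kpna6), with a median of -1.004. Of all genes tested, 51.0% were below 0 on day 1. The medians of the other 8 days lay between -0.65 (day 4) and -0.34 (day 10). From day 0 to day 1 the median of the 36 rose by 0.20 in the control line, with 31 genes up, and in the knockdown line it fell by 0.27, with 26 genes down. Over all genes tested, 50.0% rose in the control line and 48.3% fell in the knockdown line. The median of the 36 in the knockdown line then rose by 0.41 from day 1 to day 2. In that step 34 genes were up, against 51.2% of all genes tested. From day 0 to day 1 Nup98 rose by 0.99 in the control line, the most of the 36, and fell by 0.47 in the knockdown line.

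On day 6 the difference was turned round: 29 of 36 genes were above 0 and the median was 0.28. Of all genes tested, 49.7% were above 0 on that day. Ratios above 0 were held by 14 of 15 scaffold genes, 10 of 11 genes of the periphery and 5 of 10 transport factors. The highest ratios were those of Nup210 (0.74), Nup43 (0.67), Nup153 (0.60), Nup155 (0.59) and Nup37 (0.59), and the lowest was that of Kpna1 (-0.48). Of the 30 genes called lower, 26 were above 0 on day 6, and so were 60.9% of the 3462 genes called lower in the whole table. For 28 of the 36, day 6 held the highest of the 10 ratios, against 21.2% of all genes tested and 61.4% of the genes called lower.

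Around day 6 the values moved in both lines. From day 4 to day 6 the median of the 36 fell by 0.57 in the control line, with 34 genes down, and rose by 0.48 in the knockdown line, with 33 genes up. Of all genes tested, 50.8% fell in the control line and 50.8% rose in the knockdown line over that step. Both moves were seen together in 31 of 36 genes (86.1%), in 31.7% of all genes tested and in 65.7% of the genes called lower. From day 6 to day 8 the knockdown line fell by 0.82 at the median, with 35 of 36 genes down, and the control line changed by 0.06. In that step 51.5% of all genes tested fell in the knockdown line. Ranbp2 rose most in the knockdown line from day 4 to day 6, by 1.10, and Nup43 fell most in the control line, by 0.91. The proliferation genes had a median of 0.53 on day 6 and the pluripotency genes 0.26, so these lists turned with the pore genes; their part was not tested. With 1 library per line and day, a property of the day 6 libraries and a property of the cells cannot be told apart.

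**Figure D4:**
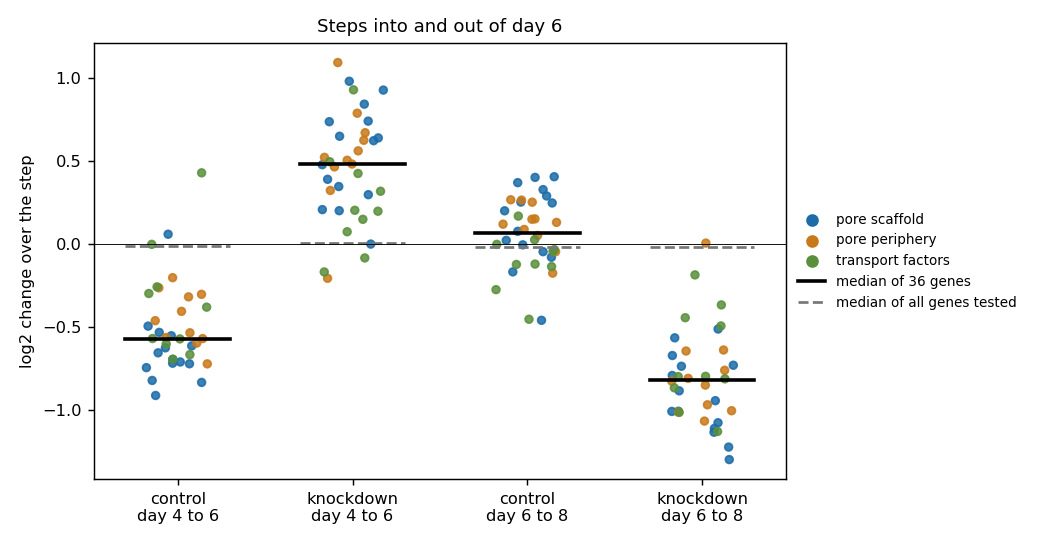
Log2 change of each of the 36 genes (points, coloured by group) over the steps from day 4 to 6 and from day 6 to 8 in each line, with the median of the 36 (black bar) and of all genes tested (dashed grey bar). Control values sit mostly below 0 and knockdown values mostly above 0 in the first step (medians -0.57 and 0.48), and in the second step the knockdown values fall to a median of -0.82.

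Within the control line the RNA of these genes fell as the cells differentiated. The slope on day was negative past the threshold for 29 of 36 genes and positive for 0 (limma over 9 days), where 24.3% of all genes fell and 19.5% rose. All 15 scaffold genes fell, with 8 of 10 transport factors and 6 of 11 genes of the periphery. The median slope of the 36 was -0.066 log2 units per day, against -0.003 for all genes tested. Ran fell most steeply (-0.11 per day, adjusted p = 0.000848), followed by Nup35 (-0.10, adjusted p = 0.00076) and Nup205 (-0.09, adjusted p = 0.00367). On day 14 Ran stood 1.58 log2 units below its day 0 value in the control line, and the median of the 36 was -0.82, with 34 genes below day 0. Of all genes tested, 51.2% were below day 0 then. The fall was not even: the median stood 0.27 above day 0 on day 4, and it dropped between days 4 and 6, 8 and 10, and 12 and 14 (by 0.57, 0.29 and 0.34). Kpna6 was 0.52 above its day 0 value on day 14. The count was 20 without day 14, 35 without day 0 and 14 with the slope taken on log2(day + 1).

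In the knockdown line 5 genes fell and 0 rose by the same test, where 5.66% of all genes fell and 7.56% rose. These were Nup85 (-0.09 per day, adjusted p = 0.0329), Ran (-0.08, adjusted p = 0.0444), Nup93 (-0.07, adjusted p = 0.0333), Pom121 (-0.06, adjusted p = 0.0444) and Aaas (-0.06, adjusted p = 0.0337). On day 14 the median stood 0.60 below day 0, with 34 of 36 genes below, against 50.2% of all genes tested. The slope was negative for 34 of 36 genes, against 53.7% of all genes tested, and 23 of the 36 passed an unadjusted p of 0.05. The count of 5 rested on single days: it was 18 without day 1 and 0 without day 2, 10, 12 or 14. The count over all 13200 genes, in either direction, moved too. It was 1745 with all 9 days and 1837 without day 1. Without day 2, 10, 12 or 14 it was 690, 812, 445 or 163.

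The difference between the slopes of both lines was tested as the slope of the ratio on day. It passed for 0 of 36 genes (limma; 4 at an unadjusted p under 0.05), where 6.63% of all genes had a falling and 7.61% a rising ratio, so the smaller count in the knockdown line is not shown to be a different time course. The median slope of the ratio was 0.026 per day, against 0.0059 for all genes tested. The slope was below 0 for 4 of the 36 genes and for 44.4% of all genes tested. With the filter raised to a log2 count of 8, the ratio rose past the threshold for 3 genes, Seh1l (0.07 per day), Nup107 (0.05) and Nup50 (0.04). In that setting 1471 of all 7457 genes tested passed, in either direction.

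**Figure D5:**
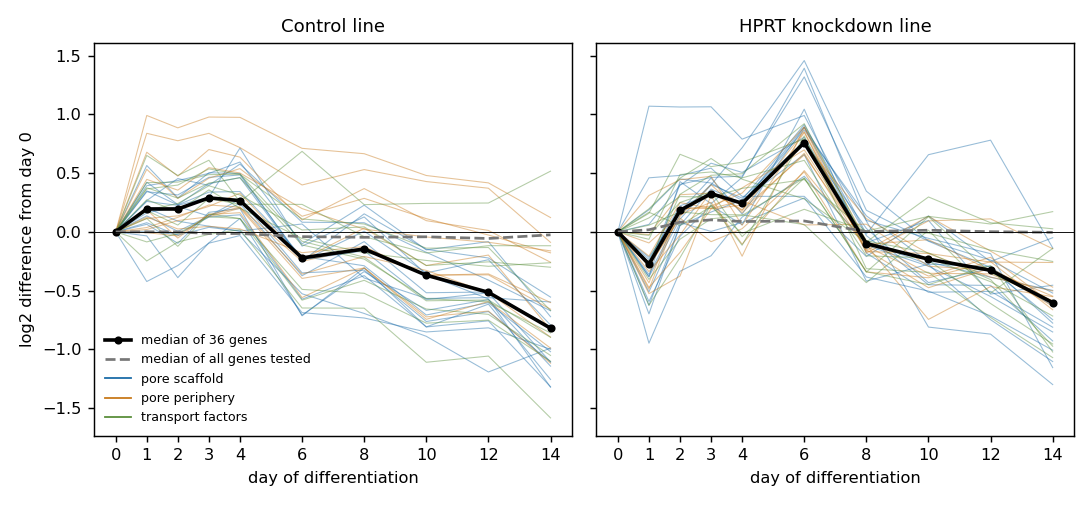
Log2 difference from day 0 (vertical axis) by day of differentiation in the control line (left) and the HPRT knockdown line (right) for the 36 genes tested (thin lines, coloured by group), with their median (black) and the median of all genes tested (dashed). The control median falls to -0.82 on day 14, and the knockdown median dips on day 1 (-0.27), peaks on day 6 (0.76) and ends at -0.60.

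Other genes of the same machinery, from lists of 55 genes of which 52 were tested, were also lower more often than higher. Of these, 31 were lower and 3 higher, with a median mean ratio of -0.292. Of all genes tested, 26.2% were lower and 26.5% higher, with a median of 0.0087, and the same shares stand beside each smaller list below. Among other pore genes, 3 of 5 tested were lower, led by Ahctf1 (-0.75 ± 0.36, adjusted p = 0.000645), which codes for ELYS, the protein that starts pore assembly on chromatin, then Nup58 (-0.43 ± 0.28) of the central channel and the membrane nucleoporin Ndc1 (-0.26 ± 0.19). In the Ran system, 4 of 5 tested were lower, among them Rcc1 (-0.90 ± 0.30, adjusted p = 0.000127), the nucleotide exchange factor that makes Ran-GTP on chromatin. Ranbp1, which helps RanGAP act on Ran, had a mean of -0.71 ± 0.32 and Rcc2 of -0.46 ± 0.55. With Ran and Rangap1 above, the genes for the GTPase, its exchange factor and its activating protein were all lower.

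Of 11 other importins and transportins tested, 5 were lower and 1 higher (median -0.254). Ipo5, which imports ribosomal proteins and histones, had a mean of -0.74 ± 0.22 (adjusted p = 0.000118), and Ipo11 -0.39 ± 0.19. Ipo13, which can carry cargo in both directions, was the exception: it was higher on all 9 days, with ratios from 0.07 (day 4) over 0.69 to 1.75 (day 12) and a mean of 0.70 ± 0.60 (adjusted p = 0.00958). Its ratio rose over the days by 0.10 per day (adjusted p = 0.0217). Of the other exportins, 3 of 4 were lower: Xpo4 (-0.77 ± 0.38), Xpo7 (-0.28 ± 0.33, adjusted p = 0.0483) and Xpo6 (-0.20 ± 0.19, adjusted p = 0.0438).

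Genes that hand mRNA to the pore were lower for 10 of 16 (median -0.350), with Thoc6 of the THO complex (-0.73 ± 0.28), the pore helicase gene Ddx19b (-0.62 ± 0.17) and the adaptor Alyref (-0.59 ± 0.33) lowest. In the nuclear lamina and envelope, 6 of 11 were lower and 2 higher (median -0.287). Lbr, the lamin B receptor, was lowest (-1.14 ± 0.43, adjusted p = 0.000167), with Lmnb1, a B-type lamin, at -0.83 ± 0.32. Syne1 (0.84 ± 0.76, adjusted p = 0.0125) and Sun2 (0.54 ± 0.20), which link the envelope to the cytoskeleton, were higher; Sun2 was singled out after its values were seen.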

How the data were processed

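RNA was read in 50 cycles from TruSeq libraries without strand, so a gene and an antisense partner cannot be told apart. Per the labels and the study's methods, the authors aligned the reads to mm9 with CASAVA 1.8.2 (NCBI37), and counted and normalized them in Avadis NGS with the DESeq method. The deposited tables hold log2 normalized counts minus the mean of the 2 libraries of a table, 10 tables for the same day and 9 for consecutive days in each line, 28 in all, each normalized separately. A ratio is the difference of both columns. Counts of 1 or less stand at log2 0, which shrinks ratios of low genes. The Readme holds no measurements and was not used. The read total of each library is not given in the sources used here, only a study-wide average, so no counting error is given.

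The tables give ratios and no levels. The typical log2 count of a gene was read from the rounding step of its values, and 13200 genes at 4 or above were tested. Ratios of 9 days were tested with limma 3.58.1 (R 4.3.3), without day 6, with Benjamini-Hochberg adjustment over all 13200 genes and a threshold of 0.05, and tested on simulated data. Slopes used the consecutive-day tables joined from day 0. The day label pairs the lines: deviations of same-day libraries correlated at -0.00075 on day 0 and at 0.119 to 0.450 on the other 8 days. Hprt was tested by exact sign-flip permutation.

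Once a constant shift fitted to each table was removed, loops of 4 tables closed within 1e-05 for 90.8% to 92.3% of the genes. The exception was days 3 to 4 (0.0682%, median gap 0.0401). There the control or the knockdown table disagrees with the others, and the loops cannot tell which, since each stands in no other loop. The ratios and steps tested keep the shifts, so different routes through the tables give values that differ by more than 1e-05. The control step through the knockdown tables was an alternative chosen after seeing the data. No such alternative was run for the knockdown step. Gene positions and 50-base windows came from NCBIM37 with GENCODE M1, the files' build. Promoter words were searched in RefSeq windows of GRCm38.p6.

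The members, lists and rules were chosen with earlier results of these data known. Genes named with values were the 2 lowest of each subgroup, those with a mean above 0, those that did not pass, the 3 steepest slopes among those that passed and, in the other lists, the 3 largest that passed; other members are given in brief. Alternatives were another filter, day 6 kept, each day left out, no pairing, another variance, centring, neighbouring tables, sign-flips and a log2 day scale.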

Additional observations from a re-analysis of the deposited data

Results flagged for a closer look

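In 7 of the 36 courses the day 6 ratio stood apart from the other 9 days by Dixon's 95% criterion for 10 values, which sets the gap to the nearest day against the whole range. These were Nup43 (0.67), Nup155 (0.59), Nup37 (0.59), Nup107 (0.57), Xpo1 (0.51), Nup133 (0.48) and Rae1 (0.26), all on the side of higher RNA in the HPRT knockdown library. Among the other genes named, the day 1 ratio of the exportin gene Xpo7 (-1.01) was apart on the low side. Chance flags about 1 in 20 groups, and 54 courses were examined.

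Of the 52 genes tested in the other lists, 9 had a ratio between the lines that rose over the days. This was the limma test of the slope of the ratio, by which 7.61% of all genes tested had a rising ratio. Of the 9, 2 are among the genes named above: Ipo13 by 0.10 per day (adjusted p = 0.0217) and Rcc2 by 0.091 per day (adjusted p = 0.0251).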

How the results depend on the processing

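The count of 30 genes lower in the knockdown line was 27 with day 6 kept, 28 by exact sign-flips, 29 without a filter, 27 of 32 at a log2 count of 8, and 30 with neighbouring-day tables, robust variance or centring. Leaving out each day gave 28 to 30, and no mean ratio changed sign in any of these. Without the pairing by day (no replicate block) it was 23: Nup93, Nup214, Nup98, Tpr, Kpnb1, Xpo5 and Ran were lost. The count of 0 genes with a different time trend became 3 at a log2 count of 8 and was 0 in the other settings run. At a log2 count of 8, 1471 of all 7457 genes tested passed, in either direction. The 29 genes falling in the control line became 14 on log2(day + 1), and 20 to 35 when each day was left out. The 5 genes falling in the knockdown line became 3 without a filter and 0 on log2(day + 1) or with day 6 kept (limma; 3 and 12 at an unadjusted p under 0.05), and 0 to 18 when each day was left out: 18 without day 1, 10 without day 0, 3 without day 4 or 8, 1 without day 3, and 0 without day 2, 10, 12 or 14 (6 to 18 at an unadjusted p under 0.05). Counts over all genes tested, in either direction, changed as well. In the knockdown line 1745 became 116 on log2(day + 1), 1284 with day 6 kept, 2912 without day 0 and 163 without day 14. In the control line 5776 became 3839 on log2(day + 1). For the difference between the lines 6964 became 5582 without the pairing. Leaving out days or raising the filter changes how many libraries or genes enter. Otherwise the cause was not tested. The mean ratio of Hprt ran from -4.19 to -3.88 when each day was left out. For single genes, 22 of 619 alternative mean ratios lost and 2 gained the call. The planned change of pseudocount was not run, because the files hold ratios. The read total of each library is not known here, so how much of the spread between days is counting error cannot be given.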
